A study of Mus musculus with 10 samples.

Results

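The genes described here are 9 genes that retinal glia are known to switch on after injury: *Gfap*, *Vim*, *Nes*, *Lcn2*, *Serpina3n*, *Cd44*, *Tnc*, *Steap4* and *S100a6*. They were chosen by name, with earlier results of these data known, and all 9 were found among the 54532 genes of the deposited table. The RNA-seq data cover 10 neural retinas, all from BALB/c mice aged 2 months, a strain whose eyes lack pigment. All mice spent 12 hr in the dark before the light period, which lasted 1 day. It was at 200 lux for the 5 normal light retinas (NL-1, NL-4, NL-5, NL-7 and NL-8) and at 15000 lux for the 5 light damage retinas (LD-1, LD-4, LD-6, LD-7 and LD-8), and the animals carried no engineered allele that the labels name. Whether each retina came from a mouse of its own is not stated in the labels, so the p-values measure the spread between these samples.

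Müller glia span the thickness of the retina and support its neurons, and astrocytes line its inner surface along the optic fibres and vessels. After injury both cell types can become reactive: they raise the proteins of their intermediate filaments, release acute-phase proteins and protease inhibitors, and change their surface and matrix proteins. GFAP is the classic marker of this state in the retina, since resting Müller glia hold little of it. Several of the 9 genes are not made by glia alone: *Vim*, *Cd44* and *S100a6* are also expressed by vascular, immune or connective tissue cells, and *Lcn2* by neutrophils and macrophages.

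Levels were given by the authors as FPKM, read fragments divided by gene length and by library size, a scale that corrects for gene length. A gene was called changed where limma gave an adjusted p under 0.01 together with a change of more than 2-fold, fitted on log2(FPKM + 0.1) over 24508 genes. Of the 9 genes, 8 were called higher in the LD retinas, none was called lower, and *Tnc* was not called. Over all genes tested, 4.13% were called higher and 6.51% in either direction. The fold changes of the 8 genes ran from 4.07 for *Vim* to 19.0 for *S100a6*. The median log2 fold change of the 9 genes was 3.27, beside -0.012 over all genes tested. In the same 8 genes every LD retina lay above every NL retina, which was so for 11.8% of all genes tested. In bulk tissue, more cells of a type and more RNA per cell cannot be told apart.

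The bases before the start of 4 of these genes are printed because they set 3 of the largest rises beside the gene that was not called. They come from RefSeq on GRCm38.p6, are written 5′ to 3′ on the strand of the gene, and end before the gene as the deposited table places it. Capitals mark matches to the letters TTCNNNGAA, a palindrome bound by STAT factors, or TTGCNNAA, bound by C/EBP factors.
S100a6 chr3:90612732-90612881, plus strand: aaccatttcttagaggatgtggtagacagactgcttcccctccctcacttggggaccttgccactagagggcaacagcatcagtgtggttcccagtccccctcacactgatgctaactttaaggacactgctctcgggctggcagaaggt
Serpina3n chr12:104406558-104406707, plus strand: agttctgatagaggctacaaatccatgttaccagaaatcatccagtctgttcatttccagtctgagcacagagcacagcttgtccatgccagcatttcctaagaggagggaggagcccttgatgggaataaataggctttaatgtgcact
Steap4 chr5:7960307-7960456, plus strand: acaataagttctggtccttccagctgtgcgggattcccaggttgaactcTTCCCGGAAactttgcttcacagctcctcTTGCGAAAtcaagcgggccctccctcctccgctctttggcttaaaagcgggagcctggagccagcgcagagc
Tnc chr4:64047016-64047165, minus strand: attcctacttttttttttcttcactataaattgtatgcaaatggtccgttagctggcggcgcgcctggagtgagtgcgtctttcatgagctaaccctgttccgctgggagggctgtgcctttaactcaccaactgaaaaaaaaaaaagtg
Of these windows, that of *Steap4* was alone in holding a capitalised match, 1 of each kind. The match TTCCCGGAA lay 116 to 108 bases before its RefSeq start, and TTGCGAAA lay 87 to 80 bases before it. In the 250 bases before the RefSeq start, searched on both strands, *Steap4* was the 1 of the 9 genes with the STAT letters, which 7.02% of 32851 promoters hold. The C/EBP letters were found for *Steap4* and *Lcn2* and in 9.56% of all promoters. TGANTCA, the AP-1 letters, was found for none of the 9 genes and in 6.75% of all promoters. A loose form of the NF-kappaB letters, 3 G followed by any 5 bases and 2 C, was found for 8 of the 9 genes, all but *Gfap*, and in 45.8% of all promoters. For *Gfap*, *Vim* and *Lcn2* the 250 bases searched lie inside the gene as the deposited table places it. The STAT, C/EBP and AP-1 letters did not overlap each other in any member promoter. A match of letters is a description of the sequence and no measurement of binding.

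*Gfap*, *Vim* and *Nes* encode intermediate filament proteins, the cytoskeleton that thickens in reactive glia. *Gfap* (chr11:102887336-102900912, minus strand) was at 23.1, 8.17, 7.94, 7.24 and 10.5 FPKM in NL-1, NL-4, NL-5, NL-7 and NL-8. It was at 81.7, 127, 127, 95.4 and 62.6 FPKM in LD-1, LD-4, LD-6, LD-7 and LD-8. The lowest LD retina was well above the highest NL retina, and NL-1 stood apart from the other NL retinas. The mean went from 11.4 ± 6.65 (SD, n = 5) to 98.7 ± 28.2 FPKM (SD, n = 5), and the log2 fold change was 3.20 with a standard error of 0.32 (95% interval 2.50 to 3.90, adjusted p = 3.9e-05 in limma). A non-coding gene on the opposite strand, Gm26668, overlaps it, and its level was 0.923 FPKM in the NL retinas and 0.61 FPKM in the LD retinas.

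*Vim* (chr2:13573927-13582826, plus strand) encodes vimentin, which Müller glia make throughout life. Its level was 35.9, 23.4, 22.1, 19.6 and 26.7 FPKM in the NL retinas, in the order given above, and 75.4, 121, 120, 85.4 and 117 FPKM in the LD retinas. The groups did not overlap, and the rise was the smallest among the 8 genes called. From 25.5 ± 6.32 to 104 ± 21.8 FPKM (SD, n = 5 each), the log2 fold change was 2.02 with a standard error of 0.18 (adjusted p = 2.16e-05 in limma).

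*Nes* (chr3:87971078-87980451, plus strand) encodes nestin, a filament protein of neural progenitors that mature glia can regain. The NL retinas held 1.14, 1.10, 0.883, 0.852 and 1.01 FPKM and the LD retinas 9.82, 11.8, 11, 9.56 and 10 FPKM. Both groups were narrow, and NL-1 was close to the others. The log2 fold change was 3.27 with a standard error of 0.10, the smallest error of the 9 genes, from 0.998 ± 0.129 to 10.4 ± 0.936 FPKM (SD, n = 5 each, adjusted p = 1.06e-08 in limma).

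The filament genes did not rise by the same factor. The *Gfap* level was 0.349 to 0.392 times that of *Vim* in 4 NL retinas and 0.643 times in NL-1. In the LD retinas LD-1, LD-4, LD-6 and LD-7 it was 1.05 to 1.12 times that of *Vim*. LD-8 lay at 0.534 and so within the NL range. In that retina *Gfap* was the lowest of the LD group and *Vim* the third highest. The summed level of the 3 genes was 27.7 to 60.1 FPKM in the NL retinas and 167 to 260 FPKM in the LD retinas. *Nes* was a small part of the sum in both groups, at 1.90% to 3.37% and at 4.28% to 5.88%.

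**Figure D1:**
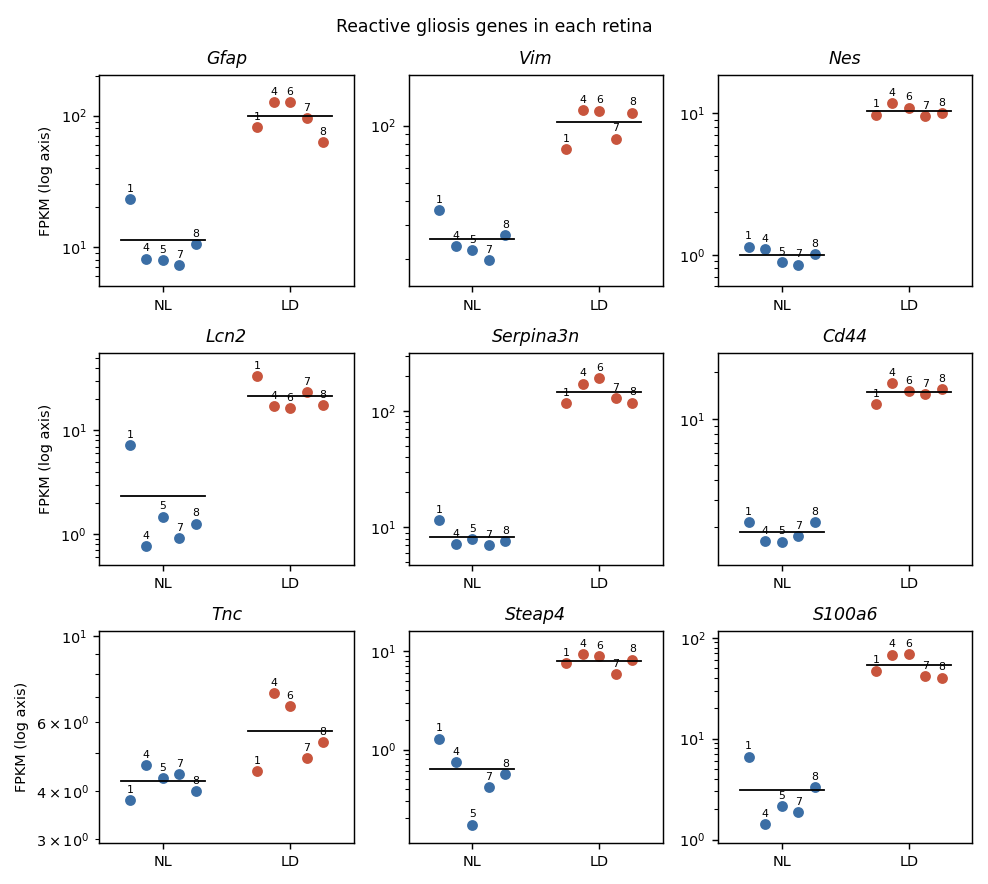
FPKM (log axis, a scale of its own in each panel) of the 9 genes in the 5 NL (blue) and 5 LD (red) retinas, with the retina's number beside each point and a line at the group mean. The groups are apart in every panel but that of Tnc, where LD-1 at 4.49 FPKM lies below NL-4 at 4.65 FPKM, and NL-1 is highest in its group in 8 panels.

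*Lcn2* and *Serpina3n* encode secreted proteins. Lipocalin 2 binds bacterial iron carriers and is an acute-phase protein of reactive astrocytes. *Lcn2* (chr2:32384633-32388252, minus strand) was at 7.24, 0.772, 1.48, 0.916 and 1.27 FPKM in the NL retinas and at 33.1, 17, 16.5, 23.3 and 17.4 FPKM in the LD retinas. Every LD retina was above NL-1, but NL-1 held 6.52 times the mean of the other 4 NL retinas (1.11 ± 0.325 FPKM, SD, n = 4). The log2 fold change was 3.61 with a standard error of 0.51, the largest error of the 9 genes (2.34 ± 2.75 to 21.5 ± 7.08 FPKM, SD, n = 5 each, adjusted p = 0.000435 in limma). Without NL-1 it was 4.14. When the retinas with the closest profiles were averaged, it was 3.47 with an adjusted p of 0.0121, and the gene was no longer called.

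*Serpina3n* (chr12:104406729-104414329, plus strand) encodes an inhibitor of serine proteases, a mouse relative of human antichymotrypsin. Its NL levels were 11.6, 7.21, 7.88, 7.05 and 7.61 FPKM, and its LD levels were 117, 172, 192, 130 and 118 FPKM. Here too the groups were far apart and NL-1 was the highest of its group. From 8.26 ± 1.87 to 146 ± 34.2 FPKM (SD, n = 5 each) the log2 fold change was 4.12 with a standard error of 0.17 (adjusted p = 9.6e-08 in limma). The gene lies in a cluster of related genes, so some of its reads may belong to neighbours, which was not tested.

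*Cd44* and *Tnc* act at the cell surface and in the matrix. CD44 is the receptor for hyaluronan, and in the retina it sits on the apical processes of Müller glia. *Cd44* (chr2:102811141-102901665, minus strand) was at 2.15, 1.62, 1.60, 1.74 and 2.15 FPKM in the NL retinas and at 12.4, 17, 15.1, 14.4 and 15.6 FPKM in the LD retinas. The spread was small in both groups, from 1.85 ± 0.275 to 14.9 ± 1.70 FPKM (SD, n = 5 each), and the log2 fold change was 2.95 with a standard error of 0.11 (adjusted p = 4.86e-08 in limma).

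Tenascin C is a matrix glycoprotein of developing and injured tissue. *Tnc* (chr4:63959785-64047015, minus strand) was at 3.79, 4.65, 4.31, 4.42 and 4 FPKM in the NL retinas and at 4.49, 7.15, 6.61, 4.85 and 5.35 FPKM in the LD retinas. LD-4 and LD-6 were the highest, and LD-1 was within the NL range. The means were 4.23 ± 0.340 and 5.69 ± 1.14 FPKM (SD, n = 5 each), and the log2 fold change was 0.40 with a standard error of 0.13 and a 95% interval of 0.12 to 0.68. The adjusted p was 0.0375 in limma and the two-sided exact permutation p over the retinas was 0.0159, so the gene passed neither the adjusted p nor the fold minimum. It was the 2675th of 15464 protein-coding genes by log2 fold change, whereas the 8 called genes ranked from 28 (*S100a6*) to 323 (*Vim*).

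*Steap4* encodes a metalloreductase that reduces iron and copper at membranes. At chr5:7960457-7982213 (plus strand), it had the lowest mean of the 9 genes in the NL retinas, with 1.29, 0.746, 0.172, 0.418 and 0.565 FPKM. These values rest on 11 to 87 reads. The LD retinas held 7.53, 9.41, 8.88, 5.84 and 8.22 FPKM, each well above the highest NL value. The log2 fold change was 3.63 with a standard error of 0.36 (0.638 ± 0.420 to 7.98 ± 1.39 FPKM, SD, n = 5 each, adjusted p = 4.27e-05 in limma). At such low levels the pseudocount weighs on the fold, and with 1 FPKM in place of 0.1 it was 2.48.

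*S100a6* encodes a small calcium-binding protein, calcyclin, of dividing and injured cells. At chr3:90612882-90624181 (plus strand), it was at 6.64, 1.41, 2.13, 1.86 and 3.32 FPKM in the NL retinas and at 47.3, 68.4, 68.9, 41.4 and 40.4 FPKM in the LD retinas. NL-1 was again the highest of its group, and the lowest LD retina was still several times above it. The mean went from 3.07 ± 2.11 to 53.3 ± 14.3 FPKM (SD, n = 5 each), and the log2 fold change was 4.25 with a standard error of 0.36 (adjusted p = 1.49e-05 in limma). For each of the 8 genes called, the two-sided exact permutation p was 0.00794, the smallest that 5 against 5 retinas can give. This p and that of *Tnc* treat the retinas as independent, which the labels do not state.

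**Figure D2:**
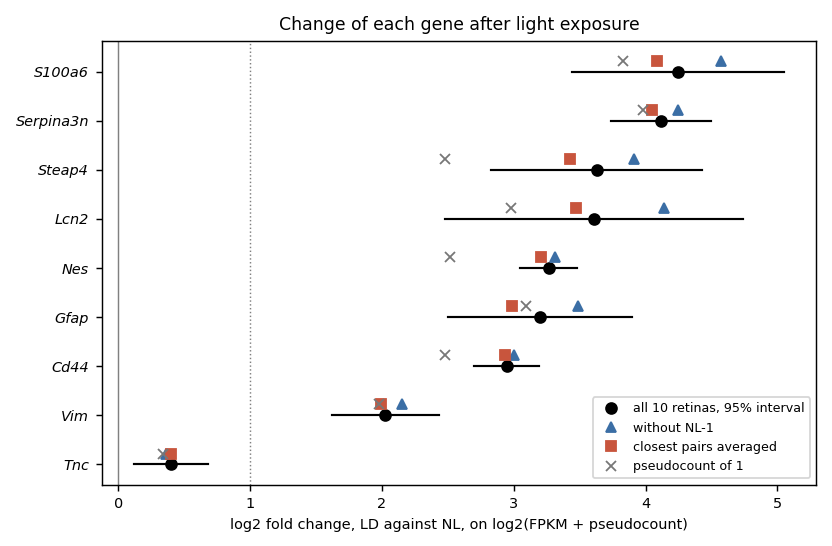
Log2 fold change of the 9 genes, LD against NL. Black points are all 10 retinas with the 95% interval, triangles leave out NL-1, squares average the closest pairs of retinas, crosses use a pseudocount of 1 FPKM, and the dotted line marks a fold change of 2. Tnc at 0.40 stays left of that line and the other 8 genes stay right of it under each setting, with the widest interval for Lcn2.

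The order of the mean levels, which FPKM allows between genes, was not the same in both groups. In the NL retinas it was *Vim*, *Gfap*, *Serpina3n*, *Tnc*, *S100a6*, *Lcn2*, *Cd44*, *Nes* and *Steap4*, though *Lcn2* was above *Cd44* in NL-1 alone. In this order, neighbours whose ranges did not overlap were *Serpina3n* above *Tnc* and *Cd44* above *Nes*. In the LD retinas the order was *Serpina3n*, *Vim*, *Gfap*, *S100a6*, *Lcn2*, *Cd44*, *Nes*, *Steap4* and *Tnc*, though *Vim* was above *Gfap* in LD-8 alone. Ranges of neighbours were apart there for *S100a6* above *Lcn2*, *Cd44* above *Nes* and *Nes* above *Steap4*. *Tnc* went from the fourth level to the last, and *Serpina3n* from the third to the top.

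Retinas of the same group differed in a way that several of the genes shared. NL-1 was the highest NL retina for 8 of the 9 genes, all but *Tnc*, while it was the highest for 21.2% of all genes tested. Its level was 2.73 times the mean of the other NL retinas for *Gfap*, 3.05 times for *S100a6* and 2.71 times for *Steap4*. For *Vim*, *Serpina3n*, *Nes* and *Cd44* it was 1.56, 1.55, 1.19 and 1.21 times that mean, and for *Cd44* NL-8 was as high. Without NL-1 the log2 fold change was 3.49 for *Gfap*, 3.91 for *Steap4* and 4.57 for *S100a6*.

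Among the LD retinas, LD-4 and LD-6 had the highest levels of most genes. Their mean was 127 FPKM for *Gfap*, beside 88.5 FPKM in LD-1 and LD-7, and 68.7 beside 44.3 FPKM for *S100a6*. *Serpina3n* was at 182 and 124 FPKM and *Tnc* at 6.88 and 4.67 FPKM in these pairs. *Lcn2* went the other way, with 16.8 FPKM in LD-4 and LD-6 and 28.2 FPKM in LD-1 and LD-7. These pairs were close over the whole profile. The chi-square per gene between the reads of 2 retinas was 2.65 to 3.65 for LD-4 with LD-6, LD-1 with LD-7 and NL-5 with NL-7, and 12.2 to 43.4 for the other 17 pairs within a group. *Xist* RNA, the transcript of the inactive X chromosome, was present in LD-4, LD-6 and 2 NL retinas. With its presence as a covariate, the same 8 genes were called.

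**Figure D3:**
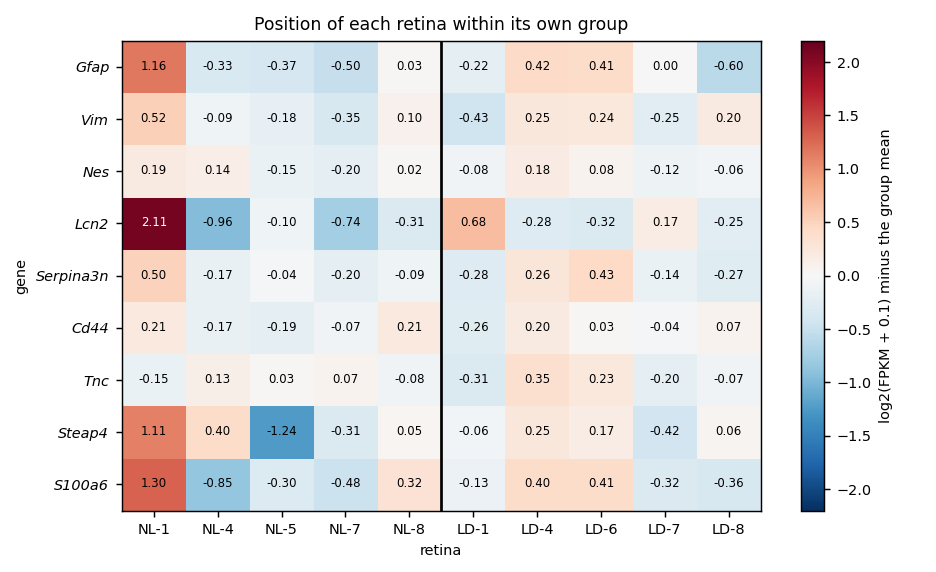
Log2(FPKM + 0.1) of each gene in each retina minus the mean of the retina's own group, printed in each cell and coloured from blue (below) to red (above). NL-1 is above its group mean for all genes but Tnc, by 2.11 for Lcn2, and LD-4 and LD-6 are above theirs for all genes but Lcn2.

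The genes with the pattern most like that of *Gfap* were sought among 12688 protein-coding genes, as the root-mean-square difference of log2 values over the 10 retinas, each gene centred on its own mean. Nearest were *Fcrls* (0.29), *Tgfbi* (0.30) and *B2m* (0.35). This measure includes the difference between the groups. The log2 fold changes of these genes were 3.18, 3.01 and 3.24, beside 3.20 for *Gfap*. Likeness within a group was not measured on its own. *Fcrls*, a receptor of microglia, was at 0.607 ± 0.458 and 6.05 ± 2.29 FPKM, *Tgfbi*, a matrix protein, at 0.197 ± 0.142 and 2.12 ± 0.273 FPKM, and *B2m*, the light chain of MHC class I, at 15.8 ± 3.75 and 148 ± 22.6 FPKM (SD, n = 5 each). The likeness was taken with a pseudocount of 0.1 FPKM alone, which weighs on low genes. With 1 FPKM the log2 fold change was 2.09 for *Fcrls* and 1.38 for *Tgfbi*. It was 3.17 for *B2m* and 3.09 for *Gfap*. Among the 9 genes, *Nes* and *Cd44* were the most alike (0.22), followed by *Serpina3n* and *S100a6* (0.39). *Tnc* and *S100a6* were the least alike (2.02).

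Other genes of reactive astrocytes were taken from 3 lists. Of 7 further pan-reactive genes, 6 were called higher, none lower, and the median log2 fold change was 2.66. *Cxcl10*, a chemokine, went from 0.0563 to 5.03 FPKM. It had at most 8 reads in an NL retina. Of the NL retinas NL-1 alone reached 0.1 FPKM, so the gene passed the filter on low values through its LD levels. Its log2 fold change of 4.94 was 2.39 with a pseudocount of 1 FPKM and 6.63 with 0.01 FPKM. *Timp1*, an inhibitor of matrix proteases, had 3.40 (1.42 ± 0.325 to 15.6 ± 0.979 FPKM, SD, n = 5 each). *Osmr*, the oncostatin M receptor, had 2.89 and *Cp*, the copper carrier ceruloplasmin, 2.66. *Hspb1*, a small heat shock protein, was at 4.41 and 4.72 FPKM and was not called.

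Of 11 genes linked to astrocytes in inflammation (A1), 7 were called higher and none lower, with a median of 1.70. *Iigp1* (4.90), *Gbp2* (4.03) and *Psmb8* (3.63) are interferon-induced, and *Serping1* (3.02) is the C1 inhibitor. *Iigp1* had at most 6 reads in an NL retina and passed the filter on low values through its LD levels alone, and its log2 fold change was 2.39 with a pseudocount of 1 FPKM and 6.17 with 0.01 FPKM. *Amigo2*, an adhesion protein, had a log2 fold change of 0.73 and an adjusted p of 0.00486 in limma, under the fold minimum. Of 12 genes linked to astrocytes after ischaemia (A2), 10 were tested, 5 were called higher and none lower, with a median of 1.23. They included *Clcf1* (2.83), a cytokine of the interleukin-6 family, *Cd14* (2.50), a co-receptor for lipopolysaccharide, and *S100a10* (2.28). *Sphk1*, a lipid kinase, had 0.70 and was not called.

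The families of the 9 genes did not all move with them. Of 11 other intermediate filament and linker genes, 2 were called higher and none lower, and the median was -0.02. The 2 were *Prph*, peripherin (1.07 to 13.3 FPKM, log2 fold change 3.48), and *Lmna*, a nuclear lamin (1.10). *Nefl*, a neurofilament of ganglion cells, was at 70.5 and 63.9 FPKM and was not called. *Synm*, synemin, a filament partner of vimentin and GFAP, was named after its values were seen: its log2 fold change was 0.86, under the fold minimum, at an adjusted p of 1.09e-05 in limma. Of 13 other S100 genes, 9 were tested, 6 were called higher and none lower. *S100a4*, 1 of the 6, had at most 1 read in an NL retina and 3 to 7 in an LD retina and passed the filter through its LD levels alone. The median was 1.78, or 1.02 with the 3 genes at or under 3 reads in a whole group set to their bounds. They included *S100a11* (3.62), *S100a13* (1.99) and *S100a16* (1.99), while *S100b*, a marker of astrocytes, was at 6.13 and 4.45 FPKM and was not called.

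For *Serpina3n*, 10 other genes of the cluster were listed, of which 6 did not pass the filter on low values and the other 4 were called higher. *Serpina3f* and *Serpina3g*, at or under 3 reads in every NL retina, passed it through their LD levels alone. *Serpina3h* went from 3.29 to 11.2 FPKM and *Serpina3i* from 0.244 to 2.02 FPKM. Any reads shared with *Serpina3n* cannot be told apart from their own in these values, and such sharing was not tested. Of 3 other Steap genes *Steap3* was called higher (1.10), while *Steap2* was at 9.58 and 8.39 FPKM. Neither receptor of LCN2 was called, and *Slc22a17* was at 64.6 ± 4.31 FPKM in the NL retinas and 63.2 ± 4.03 FPKM in the LD retinas (SD, n = 5 each).

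Of 20 partners of CD44 and tenascin C, 19 were tested, 3 were called higher and none lower, with a median of 0.57. *Spp1* encodes osteopontin, a ligand of CD44, and went from 3.35 ± 0.877 to 66.8 ± 43.3 FPKM (SD, n = 5 each, log2 fold change 4.02). *Msn* (2.17) and *Ezr* (1.46) encode moesin and ezrin, which tie the tail of CD44 to actin. The third protein of that kind, radixin (*Rdx*), had 0.29, and the proteoglycan *Sdc4* had 0.53, and both were under the fold minimum.

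Cytokines of the interleukin-6 family signal through gp130 and STAT3, a pathway known to raise *Gfap* in glia. Of 12 genes of this pathway, 11 were tested, 5 were called higher and none lower, with a median of 0.99. *Lif*, a ligand, went from 0.324 ± 0.148 to 9.07 ± 0.754 FPKM, and *Socs3*, a feedback inhibitor, from 2.12 ± 0.304 to 51.0 ± 19.0 FPKM (SD, n = 5 each). *Stat3* itself had a log2 fold change of 1.85, and the *Osmr* and *Clcf1* values given above were the other 2. *Il6st*, which encodes gp130, went from 15.5 to 31.0 FPKM, with a log2 fold change of 0.99 that had an adjusted p of 3.48e-07 in limma and missed the fold minimum.

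**Figure D4:**
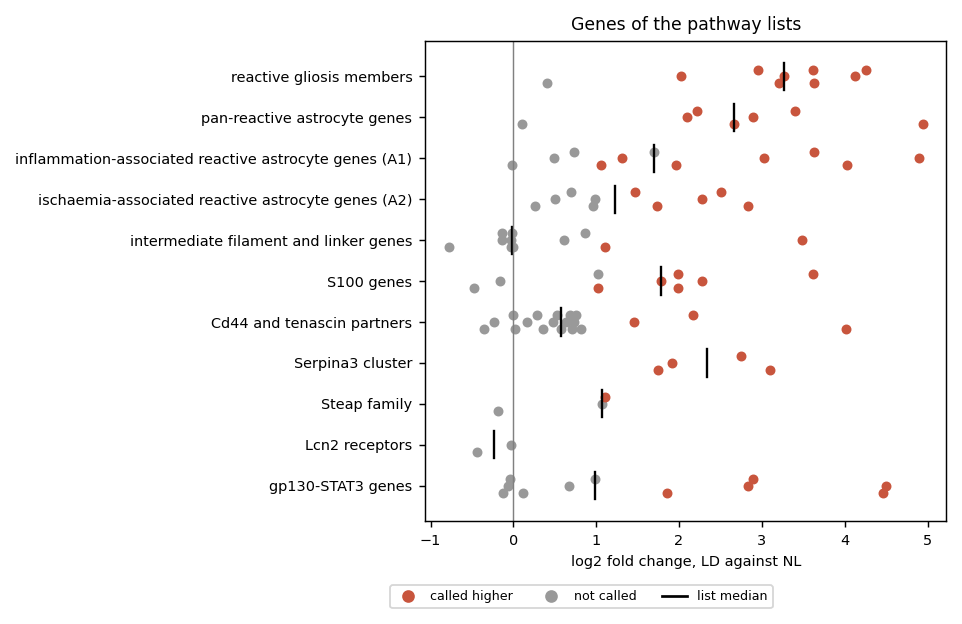
Log2 fold change, LD against NL, of each tested gene of the 9 reactive gliosis genes and of the 10 pathway lists without them; red points were called higher, grey points were not called, and the black line is the median of the list. The medians run from 3.27 for the 9 genes to -0.23 for the Lcn2 receptors, and no gene of these lists was called lower.

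Markers of the cells that the tissue holds were measured beside these genes. Of 12 markers of Müller glia none was called higher and 1 was called lower, where 2.37% of all genes tested were called lower. That gene was *Glul*, glutamine synthetase, which went from 711 ± 94.8 to 165 ± 8.77 FPKM (SD, n = 5 each). The summed level of the 12 markers was 1500 to 1740 FPKM in the NL retinas and 866 to 1230 FPKM in the LD retinas. Without *Glul* the sum of the other 11 was 872 to 957 FPKM in the NL retinas and 701 to 1060 FPKM in the LD retinas, so that the groups overlapped. The median log2 fold change of the 12 markers was -0.01. Named after their values were seen, *Slc1a3*, a glutamate transporter (26.2 and 37.5 FPKM), and the transcription factor *Sox9* (6.7 and 11.9 FPKM) were above the NL range in every LD retina, and *Car14*, a carbonic anhydrase (19.5 and 10.9 FPKM), and *Abca8a* (47.5 and 28.4 FPKM) were below it, but none of these 4 was called. Of 5 markers of retinal astrocytes 1 was called higher, *Aldh1l1* (2.33 to 11.9 FPKM), and the sum was 9.51 to 15.1 and 16.4 to 26.4 FPKM. The groups were apart for *Aldh1l1* alone. The other 4 markers, *S100b* among them, overlapped between the groups and were not called. All 8 rod markers were called lower, and their sum was 7760 to 9480 and 1080 to 2300 FPKM.

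The summed markers of microglia and macrophages were also higher in the LD retinas, and NL-1 had the highest NL sum. Of the 12 markers 11 were tested, 8 were called higher and none lower, among them *Lyz2* (2.51), *Cd68* (2.41) and *C1qa* (1.86). The 3 tested but not called, named after their values were seen, overlapped between the groups. They were *P2ry12* (2.03 and 1.32 FPKM), *Tmem119* (1.63 and 1.95 FPKM) and *Csf1r* (2.86 and 5.01 FPKM). The sum of the 12 markers was 32.6 FPKM in NL-1, 19.7 to 22.5 FPKM in the 4 remaining NL retinas and 44.2 to 98.2 FPKM in the LD retinas. LD-1 and LD-7, which held the most *Lcn2*, had the highest sums, 98.2 and 85.9 FPKM. The 10 neutrophil markers summed to 0.743 to 1.39 FPKM in the NL retinas and 0.854 to 2.17 FPKM in the LD retinas, again with LD-1 and LD-7 the highest. Of these 10, 5 were tested and none was called, with *Elane* at 0 in all 10 retinas. The part of these cells in the levels of the 9 genes was not tested.

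**Figure D5:**
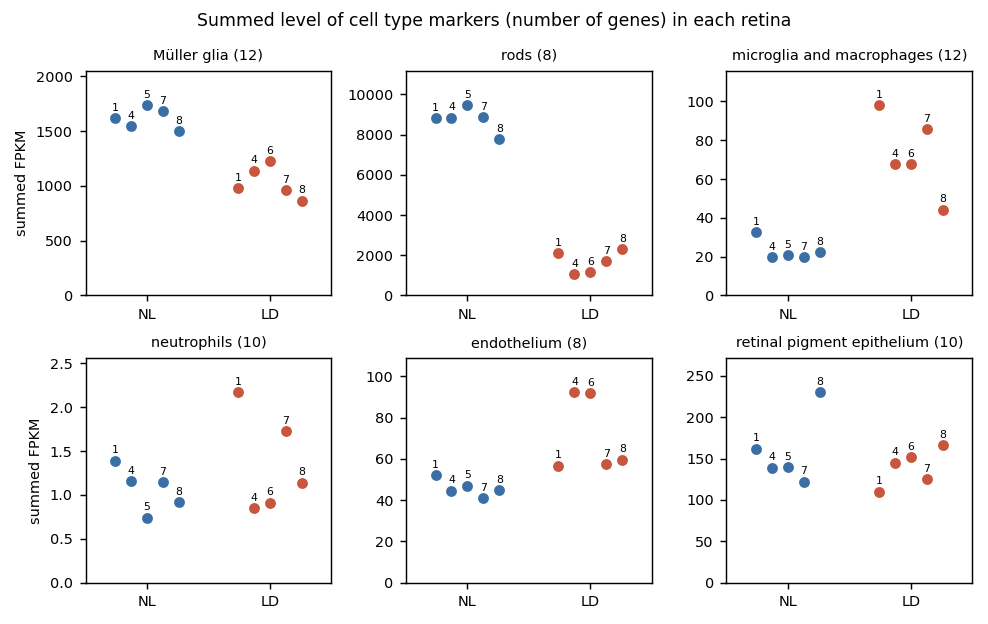
Summed FPKM (axis from 0) of the markers of 6 cell types in each NL (blue) and LD (red) retina, with the retina's number beside each point and the number of markers in the title. The rod sum and the Müller glia sum are lower in every LD retina. Without Glul, the sum of the other 11 Müller glia markers overlaps between the groups. The microglia sum is higher in every LD retina, and NL-1 has the highest NL sum for microglia at 32.6 FPKM.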

How the data were processed

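Per the labels, TRIzol was used for RNA extraction, and per the paper a company sequenced and normalized the libraries. The deposited table holds FPKM, as the authors normalized them, of 54532 genes in 10 retinas. The submitters' processing notes name Bowtie2 2.0.6, TopHat2 2.0.9 and the mm8 build. The positions in the table are those of GRCm38, since 53585 genes have the same position in GENCODE release M21. The counting program, annotation and strand setting are not given in the sources used here. Multiplied by gene length, all values came out as whole reads (tolerance 1e-06), with totals of 21343389 to 26832535 in the NL group and of 18965090 to 23378090 in the LD group.

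Genes that reached 0.1 FPKM in 5 or more retinas were tested on log2(FPKM + 0.1) with limma 3.58.1 (R 4.3.3), an intensity trend and Benjamini-Hochberg adjustment. Fold changes are on that scale, which understates changes of low genes. Exact permutation tests used scipy 1.17.1. The model was tested on simulated data. Promoters were taken from RefSeq, where all 9 genes matched.

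The members and the lists were chosen with earlier results of these data known. From each list, up to 4 called genes of at least 1 FPKM with the largest change and up to 2 uncalled genes with the highest level were eligible for naming, and from each marker list the highest gene and called genes. The alternatives were 24 other models, 3 of them chosen after seeing the data. They changed the pseudocount, filter, scaling, trend, test, replicate block and retinas included, and another threshold was also tried. The level of 1 marker gene is not reported here.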

Additional observations from a re-analysis of the deposited data

Results flagged for a closer look

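Within each group of 5 retinas, the highest or lowest value was set against the others by Dixon's test. Of 38 groups of values 5 were singled out, where chance gives about 1.9, and 4 of the 5 were NL-1. *Gfap* was at 23.1 FPKM in NL-1 and at 7.24 to 10.5 FPKM in the other NL retinas. *Lcn2* was at 7.24 FPKM in NL-1 and at 0.772 to 1.48 FPKM in the others, and *Serpina3n* was at 11.6 FPKM in NL-1 and at 7.05 to 7.88 FPKM in the others. The summed markers of microglia and macrophages were at 32.6 FPKM in NL-1 and at 19.7 to 22.5 FPKM in the others. The recovered reads were highest in NL-8, with 26832535 beside 21343389 to 22257565 in the others.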

How the results depend on the processing

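Of the 9 genes, 8 were called higher under each of the 24 other models except 1: with the closest pairs averaged, 7 were called, since *Lcn2* had a log2 fold change of 3.47 and an adjusted p of 0.0121 (limma). Over all models its log2 fold change was 2.98 to 4.14 and its adjusted p 3.91e-06 to 0.0121, and leaving out each retina in turn gave 3.37 to 4.14. At an adjusted p under 0.05 with no fold minimum, all 9 were called, *Tnc* with 0.40. Its log2 fold change ranged from 0.31 to 0.53 and its adjusted p from 0.0109 to 0.183. Over all genes, 1595 were called. The count was 816 with a pseudocount of 1 FPKM, 949 with the closest pairs averaged, 690 with these pairs averaged and NL-1 left out (chosen after seeing the data), 6818 at an adjusted p under 0.05 with no fold minimum, and 1285 to 1505 with 1 retina left out. The retinas that share a replicate number do not deviate together (r from -0.0893 to 0.0656 for 4 numbers, 1 of 4 best with its own number). With the replicate block 772 genes were called, beside 1076 in the same 8 retinas without it. Of the 98 other genes of the pathway lists 36 were called, with a range of 25 to 41. *Slc22a17* turned to 0.10 without the authors' factor per retina and to 0.07 as TPM, where the median of all genes was 0.109 and 0.093. *Hspb1* turned to -0.01 without NL-4 and to -0.01 without LD-6, and with 1 retina left out it reached at most 0.18. It was 0.23 without the factor per retina and 0.20 as TPM. Among the other genes named, *Lmna* (0.88) and *Steap3* (0.79) were not called with a pseudocount of 1 FPKM. The replicate block ended the calls of *Serpina3i*, *Aldh1l1* and *Lyz2*, and *Steap3* was not called in those 8 retinas with or without it. Averaging the closest pairs ended the calls of *C1qa* and *Fcrls*, and with NL-1 also left out those of *Serpina3i* and *Steap3*. *Il6st*, at the fold minimum, was called under several models, with up to 1.12. Where a value changed, the cause was not tested. For *Steap4* the 11 reads in NL-5 limit the precision.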

Other observations

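Markers of other cell types near the glia were also measured. Of 8 endothelial markers none was called, and their sum was 41.0 to 52.2 FPKM in the NL retinas and 56.8 to 92.3 FPKM in the LD retinas. Most of this sum was *Kdr*, at 27.1 to 37.1 FPKM in the NL retinas and 38.1 to 64.4 FPKM in the LD retinas. The groups were apart for *Kdr* alone and overlapped for the other endothelial markers. LD-4 and LD-6, which held the most *Gfap*, *Serpina3n* and *S100a6*, had the highest endothelial sums, 92.3 and 91.8 FPKM. Of 9 markers of pericytes and fibroblasts 7 were tested and none was called, with sums of 8.54 to 13.8 and 8.38 to 17.4 FPKM. None of 10 markers of the retinal pigment epithelium was called, with sums of 122 to 230 and 110 to 166 FPKM. The 7 markers of lens and ciliary epithelium summed to 0.770 to 1.46 and 0.731 to 1.09 FPKM, and none of the 3 tested was called. The part of these cells in the levels of the reactive gliosis genes was not tested.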
